A study of Rattus norvegicus with 24 samples.

Results

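Car3, Igf1 and Ghr are 3 genes whose expression in the liver is governed by growth hormone, and they are described here across 24 libraries of rat liver RNA. They are 3 of the 26404 gene IDs in the count tables: ENSRNOG00000010079 (Car3), ENSRNOG00000004517 (Igf1) and ENSRNOG00000015654 (Ghr). They were chosen by their falls at the upper doses in these same libraries, so their changes against vehicle are given as a description. Where the genome-wide threshold is applied to them, it serves to count calls, and nothing is read from those counts. The names belong to the rule that picked the 3 rows. The count tables hold IDs only, and the RefSeq gene table used here paired 0 of them with a symbol.

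The rats were female Sprague-Dawley animals, an outbred stock, labelled with an age of 57 days. Each was gavaged every 4 days for 28 days with sesame oil vehicle or with TCDD (2,3,7,8-tetrachlorodibenzo-p-dioxin), a persistent ligand of the aryl hydrocarbon receptor. The 7 TCDD groups received 0.01 or 0.03 µg/kg, 0.1 or 0.3 µg/kg, 1 or 3 µg/kg, or 10 µg/kg, and every group, vehicle included, held 3 libraries that the series calls biological replicates. The series title gives the handling of polyunsaturated fatty acids in the liver as its subject. RNA was from whole liver, so a smaller number of expressing cells and less RNA per cell cannot be told apart. The marker lists for liver cell types, fat and muscle could not be applied without symbols, and the tissue label was therefore not checked. All 3 genes passed the low-count filter that left 12496 IDs for testing. Gene counts per library ran from 11816273 to 15804887.

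As background, growth hormone from the pituitary acts on the hepatocyte through its receptor, the product of Ghr, which signals through the kinase JAK2 and the transcription factor STAT5b. Igf1, one of the best known targets of this pathway in liver, encodes insulin-like growth factor 1, the circulating hormone that carries much of the growth-promoting effect to other tissues. Car3 encodes carbonic anhydrase 3, a cytosolic enzyme of low catalytic activity that is abundant in liver, fat and slow skeletal muscle. In rat liver it is more abundant in males than in females, a difference that follows the sex-specific pattern of growth hormone release.

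The promoters of the genes are shown because the aryl hydrocarbon receptor binds DNA at a short core, GCGTG, and STAT5 at TTCNNNGAA. RefSeq promoter entries (build GRCr8) were found for 2 of the 3 genes, Igf1 and Ghr. The 250 bases before the start site used in that table are printed 5′ to 3′ on the strand of the gene, all in lower case because neither motif was found. Igf1 lies on the plus strand (chr7:24172282-24172531) and Ghr on the minus strand (chr2:54432076-54432325).
Igf1: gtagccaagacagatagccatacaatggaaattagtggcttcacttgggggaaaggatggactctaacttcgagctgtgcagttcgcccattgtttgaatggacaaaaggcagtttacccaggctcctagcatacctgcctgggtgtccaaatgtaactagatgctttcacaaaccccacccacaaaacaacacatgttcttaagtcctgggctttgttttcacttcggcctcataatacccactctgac
Ghr: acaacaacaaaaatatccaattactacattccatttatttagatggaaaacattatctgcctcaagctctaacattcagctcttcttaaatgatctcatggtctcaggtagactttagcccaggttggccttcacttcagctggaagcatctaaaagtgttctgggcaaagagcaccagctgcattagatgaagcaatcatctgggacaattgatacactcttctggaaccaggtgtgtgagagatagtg
On either strand, GCGTG occurred 0 times in both windows, and so did TTCNNNGAA, which reads the same on both strands. Among all 33469 promoter windows of this length, 25.9% held GCGTG and 7.67% held TTCNNNGAA. Neither absence says anything about binding of these factors elsewhere at the genes. The table gives 1 start per gene, and other transcript starts were not analysed here.

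Ghr, the receptor, stayed near its vehicle level over the low doses and was lower at the highest ones. The vehicle libraries held 645, 575 and 667 CPM (counts scaled to a common library size with TMM factors, which adjust for library composition, replicates 1 to 3). Levels were 563, 554 and 752 CPM at 0.01 µg/kg, and 540, 782 and 612 CPM at 0.03 µg/kg. At 0.1 µg/kg the libraries held 860, 544 and 465 CPM. These 3 low doses overlapped vehicle on both sides, and the widest spread of any group was at 0.1 µg/kg, with a CV of 33.6% against 7.63% in vehicle. Levels were 520, 433 and 579 CPM at 0.3 µg/kg, and 496, 610 and 454 CPM at 1 µg/kg. In both groups 1 library reached the vehicle range. At 3 µg/kg the 3 libraries held 408, 459 and 324 CPM. The 10 µg/kg libraries held 278, 190 and 225 CPM. Every library at these 2 doses lay below every vehicle library.

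The group mean of Ghr was 629 ± 48.0 CPM for vehicle. It was 397 ± 68.0 CPM for the 3 µg/kg group and 231 ± 44.3 CPM for the 10 µg/kg group (SD, n = 3). The fitted log2 fold change of Ghr against vehicle was 0.03 (SE 0.214) with 0.03 µg/kg and -0.27 (SE 0.215) with 1 µg/kg. With 3 µg/kg it was -0.66 (SE 0.215), and with 10 µg/kg -1.45 (SE 0.219). The last of these left the receptor transcript at 36.7% of its vehicle mean. In the order of group means only 10 and 3 µg/kg had separate ranges, and the other 6 neighbouring pairs overlapped.

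Igf1, the hormone gene, overlapped vehicle up to 0.3 µg/kg and was lowest at the highest dose. The vehicle libraries held 504, 480 and 650 CPM. Levels were 481, 397 and 602 CPM at 0.01 µg/kg, and 485, 379 and 382 CPM at 0.03 µg/kg. At 0.1 µg/kg they were 398, 474 and 537 CPM. From 0.01 to 0.1 µg/kg, 1 or 2 libraries of each group lay below all of vehicle while the others did not. At 0.3 µg/kg Igf1 stood at 420, 445 and 581 CPM, again with 1 library inside the vehicle range. At 1 µg/kg the libraries held 466, 337 and 376 CPM, all below vehicle, though the highest of them was close to the lowest vehicle library. Igf1 fell further to 385, 244 and 268 CPM at 3 µg/kg and to 288, 221 and 218 CPM at 10 µg/kg, where the ranges were clear of vehicle.

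The mean of Igf1 was 545 ± 91.9 CPM for vehicle and 393 ± 66.2 CPM for the 1 µg/kg group. It was 299 ± 75.2 CPM with 3 µg/kg and 242 ± 40.0 CPM with 10 µg/kg (SD, n = 3). Its fitted log2 fold change was -0.39 (SE 0.204) with 0.03 µg/kg, -0.18 (SE 0.203) with 0.3 µg/kg and -0.47 (SE 0.204) with 1 µg/kg. The 2 highest doses gave -0.87 (SE 0.205) and -1.17 (SE 0.206). At the highest dose 44.5% of the vehicle mean was left. No neighbouring pair of groups in the order of means had separate ranges.

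Car3, the enzyme, differed from the other 2 in the size of its fall and in spread, and with all libraries kept also in its start. In vehicle the libraries held 40.3, 135 and 140 CPM, so replicate 1 was more than 3 times lower than its companions. Levels were 67.5, 57.7 and 42.6 CPM with 0.01 µg/kg, 22.4, 94.5 and 109 CPM with 0.03 µg/kg, then 53.2, 52.2 and 22.8 CPM with 0.1 µg/kg. The low vehicle library kept the ranges of these 3 doses overlapping with vehicle, and at each of them at least 1 library was above it. At 0.3 µg/kg the libraries held 32.2, 27.4 and 21.7 CPM, the lowest dose at which all of them lay below all of vehicle. At 1 µg/kg they held 9.86, 15.0 and 36.3 CPM, a spread that again overlapped the group below. At 3 µg/kg the level dropped to 1.22, 3.32 and 2.79 CPM. The 10 µg/kg libraries held 0.329, 0.927 and 0.311 CPM. These last 2 groups were the only ones of Car3 whose ranges were separate from the neighbouring group above. Their closest libraries, 1.22 CPM at 3 µg/kg and 0.927 CPM at 10 µg/kg, had overlapping 95% Poisson intervals (0.722 to 1.92 and 0.530 to 1.51 CPM).

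The mean of Car3 was 105 ± 56.1 CPM for vehicle, 27.1 ± 5.30 CPM for the 0.3 µg/kg group and 20.4 ± 14.0 CPM for the 1 µg/kg group. It was 2.44 ± 1.09 CPM with 3 µg/kg and 0.522 ± 0.351 CPM with 10 µg/kg (SD, n = 3). The fitted log2 fold change was -0.91 (SE 0.529) with 0.01 µg/kg, -0.48 (SE 0.524) with 0.03 µg/kg and -1.30 (SE 0.534) with 0.1 µg/kg. Car3 then stood at -1.95 (SE 0.547) with 0.3 µg/kg and -2.37 (SE 0.556) with 1 µg/kg. The 2 highest doses gave -5.45 (SE 0.671) and -7.60 (SE 0.778). By the fitted values the largest step was from 1 to 3 µg/kg (-3.08, SE 0.638), followed by 3 to 10 µg/kg (-2.15, SE 0.847). The difference between these 2 steps was not tested. At 10 µg/kg the transcript was 194-fold lower than in vehicle on the fitted scale, at 0.497% of the vehicle mean. That value rested on 5, 16 and 5 counts, against 522, 1678 and 1656 in vehicle. The exact 95% Poisson intervals at 10 µg/kg were 0.107 to 0.767, 0.530 to 1.51 and 0.101 to 0.725 CPM, and they cover counting error only, since reads without molecular identifiers are not independent molecules. Without replicate 2 of that dose the log2 fold change was -8.32. In rank among the 12496 genes that passed the low-count filter, Car3 went from a vehicle level above 92.2% of them to one above 2.06%. Igf1 went from 98.3% to 97.2% and Ghr from 98.5% to 97.0%. IDs low in every group had been filtered out, and Car3 passed through groups other than 10 µg/kg, so its 2.06% depends on the filter.

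**Figure D1:**
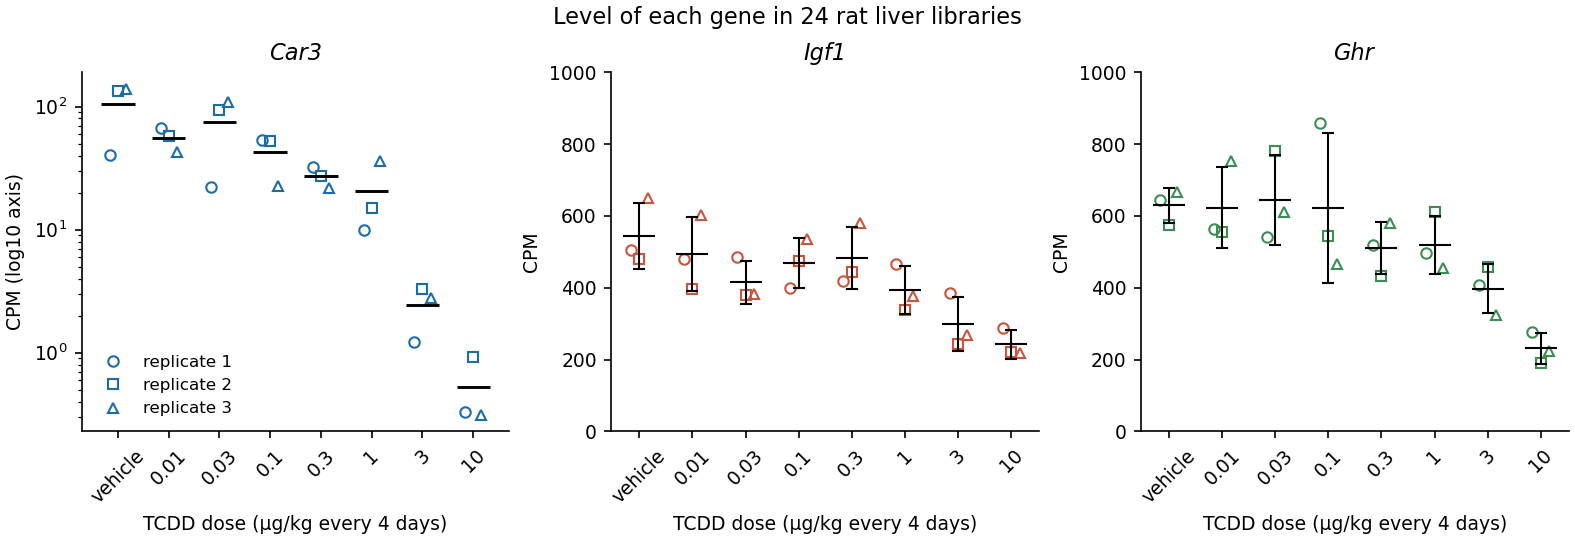
Level of each gene in CPM (vertical axes, log10 for Car3 and linear from 0 for Igf1 and Ghr) in every library of vehicle and the 7 TCDD doses. Symbols mark replicates 1, 2 and 3, black lines are group means and bars are SD (n = 3, drawn for Igf1 and Ghr only); Car3 runs from 140 CPM in a vehicle library to 0.311 CPM at 10 µg/kg, while Igf1 and Ghr end at means of 242 and 231 CPM.

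The start of each fall was read from the ranges of the libraries. All 3 libraries lay below all 3 vehicle libraries from 0.3 µg/kg for Car3, from 1 µg/kg for Igf1 and from 3 µg/kg for Ghr, and at every higher dose. Single libraries set these starts. Without vehicle replicate 1 the start of Car3 was 0.01 µg/kg, and without replicate 3 of 0.3 µg/kg that of Igf1 was 0.3 µg/kg. The start of Ghr was 0.3 µg/kg without vehicle replicate 2 and 1 µg/kg without replicate 2 of 1 µg/kg. The order of Igf1 and Ghr therefore turned with 1 vehicle library. Where Igf1 or Ghr started at 0.3 µg/kg, it was level with Car3, whose start was then also 0.3 µg/kg. At 0.01, 0.03 and 0.1 µg/kg this held for 0 of the 3 genes, where it held for 5.03%, 5.73% and 7.29% of all genes tested. It held for 1 of 3 at 0.3 µg/kg (7.63% of all genes), for 2 of 3 at 1 µg/kg (8.68%), and for 3 of 3 at 3 µg/kg (12.3%) and 10 µg/kg (21.3%). These genes were picked for falling, so their counts are not read against these shares. The group mean went below 50% of vehicle between 0.03 and 0.1 µg/kg for Car3 and between 3 and 10 µg/kg for Igf1 and for Ghr. Without replicate 3 of 0.1 µg/kg the mean of Car3 was below that level only from 0.3 µg/kg, and without replicate 1 of 3 µg/kg that of Igf1 was below it from 3 µg/kg. Without vehicle replicate 1 the fitted log2 fold change of Car3 at 0.01 µg/kg was already -1.30.

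By the genome-wide threshold (edgeR, Benjamini-Hochberg adjusted p below 0.05, lower than vehicle), 0 of the 3 genes were called at any of the 4 lowest doses. The shares of all genes called lower at those doses, from the lowest up, were 0%, 0%, 0.0480% and 0.144%. At an unadjusted p below 0.05 the fit held 0 of the 3 at the lowest 2 doses and 1 of 3, Car3, at 0.1 and at 0.3 µg/kg. It held 2 of 3, Car3 and Igf1, at 1 µg/kg and all 3 at 3 and 10 µg/kg. The share of all genes at this unadjusted threshold is not given here, so nothing is read from these counts. DESeq2 called Car3 at 0.3 µg/kg, among the 80 genes that it called lower there. By the edgeR threshold Car3 was called at 1 µg/kg, where 0.416% of genes were, and all 3 genes at 3 µg/kg (5.32%) and 10 µg/kg (13.5%). The call of Car3 at 1 µg/kg was lost without vehicle replicate 2 or 3, without replicate 1 or 2 of that dose, and when only the 2 groups were fitted, and its log2 fold change was -3.08 without replicate 3 of that dose. The call of Ghr at 3 µg/kg was lost without any 1 of the 6 libraries compared, with no low-count filter, and when only the 2 groups were fitted, which also lost that of Igf1. At 10 µg/kg no setting tried and no omitted library ended a call of the 3. The genes were picked for their falls and the refits reused the same counts, so these kept calls are no measure of stability.

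**Figure D2:**
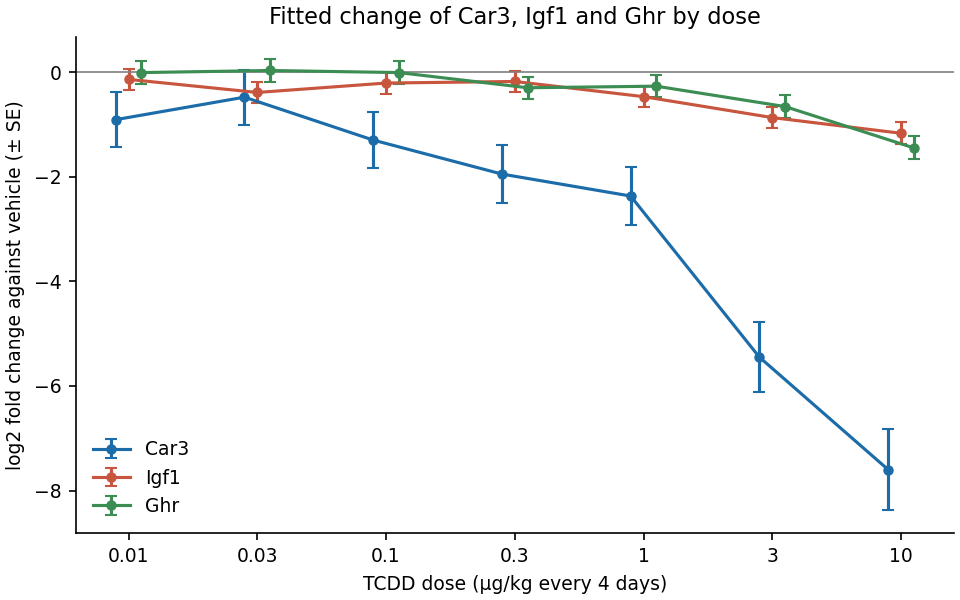
Fitted log2 fold change against vehicle (vertical axis, bars are SE) by dose (horizontal axis, µg/kg) for Car3, Igf1 and Ghr, each fitted to all 24 libraries. Car3 lies below the other 2 at all 7 doses and reaches -7.60, while Igf1 and Ghr end at -1.17 and -1.45.

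The steps between the highest doses were compared next. From 1 to 3 µg/kg the fitted log2 fold change was -3.08 (SE 0.638) for Car3, -0.39 (SE 0.204) for Igf1 and -0.39 (SE 0.215) for Ghr. Only Car3 was called there, beside 0.168% of all genes called lower, and it lost that call when only the 2 groups were fitted and without replicate 2 or 3 of 1 µg/kg or any 1 library of 3 µg/kg. Without replicate 3 of 1 µg/kg its value was -2.37. From 3 to 10 µg/kg the change was -2.15 (SE 0.847) for Car3, -0.30 (SE 0.204) for Igf1 and -0.78 (SE 0.216) for Ghr. Only Ghr was called, beside 2.83% of all genes, and not without replicate 1 or 2 of 3 µg/kg, without replicate 2 or 3 of 10 µg/kg, or when only the 2 groups were fitted. DESeq2 called Car3 in this comparison, among the 516 genes that it called lower. The edgeR value of Car3 was -2.87 without replicate 2 of 10 µg/kg. Omission of 1 library gave 3 to 27 genes called lower from 1 to 3 µg/kg, against 21 with all, and 81 to 432 from 3 to 10 µg/kg, against 354. A call of 1 gene and not of another is no test of a difference between them.

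The proportion of Igf1 to Ghr moved little beside that of Car3 to either. The log2 ratio of Igf1 to Ghr, in CPM and without correction for transcript length, was -0.22 ± 0.164 for vehicle and -0.63 ± 0.447 for 0.03 µg/kg, the lowest of the group means. It was -0.42 ± 0.433 for 3 µg/kg and 0.08 ± 0.133 for 10 µg/kg (SD, n = 3). Its ranges in vehicle (-0.36 to -0.04) and at 10 µg/kg (-0.05 to 0.22) overlapped only at their ends. The log2 ratio of Car3 to Igf1 was -2.56 ± 0.952 for vehicle and -4.46 ± 1.09 for 1 µg/kg. For 3 and 10 µg/kg it was -6.93 ± 1.06 and -8.60 ± 0.816 (SD, n = 3). Here the ranges of vehicle (-3.64 to -1.83) and of 3 µg/kg (-8.14 to -6.14) were far apart.

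Among all genes tested, the fall of Car3 was near the end of the distribution and those of Igf1 and Ghr were in its lower flank. At 10 µg/kg 2 genes had a lower log2 fold change than Car3, and 2.59% of genes had a lower one than Ghr and 4.15% than Igf1. At 3 µg/kg 3 genes lay below Car3, 5.34% of genes lay below Igf1 and 8.47% below Ghr. The median log2 fold change of the 3 genes was -1.45 at 10 µg/kg and -0.87 at 3 µg/kg, beside -0.017 and -0.008 over all genes tested.

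**Figure D3:**
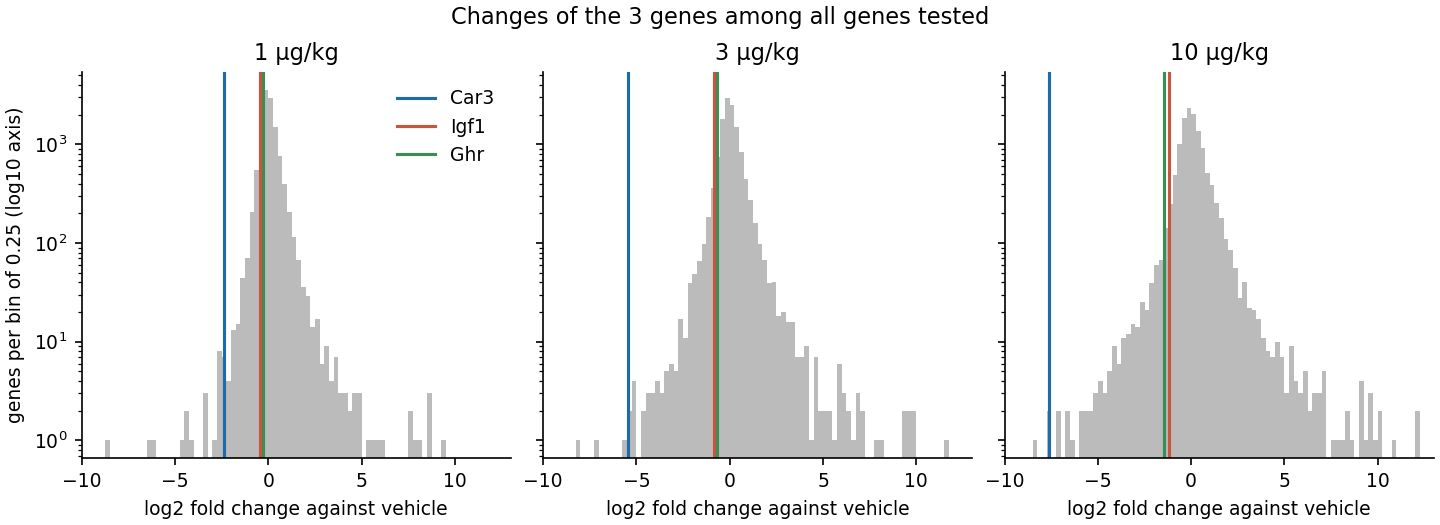
Number of genes (vertical axis, log10) per bin of 0.25 in log2 fold change against vehicle (horizontal axis) at 1, 3 and 10 µg/kg, over the 12496 genes tested. Coloured lines mark Car3, Igf1 and Ghr; at 10 µg/kg 2 genes lie below Car3 at -7.60, while Igf1 and Ghr lie on the lower slope at -1.17 and -1.45.

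The libraries at 10 µg/kg also stood apart in reads that enter no gene count. Alignments that were not unique made up 29.3% to 35.0% of a table's total there and 21.0% to 25.8% in the other 21 libraries, and alignments outside annotated genes 12.0% to 12.9% against 13.3% to 17.7%. The part of these shares in the values at 10 µg/kg was not tested. At 3 µg/kg the not-unique share was 21.0% to 22.8%, below all 3 vehicle libraries (23.4% to 24.9%). Car3, Igf1 and Ghr stood at 2.33%, 54.9% and 63.1% of their vehicle means there. The part of the share in the falls was not tested at 3 µg/kg either.

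Whether the 3 genes moved together was examined separately across doses and within doses. Over all 24 libraries Pearson's r of log2 CPM was 0.850 for Car3 and Ghr, 0.742 for Car3 and Igf1 and 0.723 for Igf1 and Ghr. Genes picked for falling share the dose, so these values are a description with no p. Of the 12495 other genes, 0.936% were more like Car3 than Ghr was, and 0.424% more like Ghr than Car3 was. For Car3 and Igf1 these shares were 3.47% (more like Car3) and 1.94% (more like Igf1). For Igf1 and Ghr they were 2.42% (more like Igf1) and 3.40% (more like Ghr). The 2 genes most like Car3 were ENSRNOG00000036680 (r = 0.960) and ENSRNOG00000014481 (r = 0.954), among 8344 genes with a mean of at least 5 CPM over the libraries. ENSRNOG00000036680 averaged 39.4 ± 9.30 CPM in the vehicle group and 2.51 ± 0.840 CPM in the 10 µg/kg group (SD, n = 3). The means of ENSRNOG00000014481 were 331 ± 70.0 and 106 ± 27.9 CPM (SD, n = 3). No symbol was paired with either ID.

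Within doses no pair of the genes passed the threshold for moving together. After each group's mean was subtracted, Car3 and Igf1 had r = -0.511 over the 24 libraries (two-sided permutation p = 0.0248 with values permuted within dose groups, Benjamini-Hochberg adjusted p = 0.0745 over 3 pairs). Spearman's rho was -0.377 (permutation p = 0.0806, adjusted p = 0.242). The relation missed the threshold after adjustment. It was negative in 7 of 8 groups, vehicle being the exception, and in 6 of 8 groups the library with the least Car3 was the one with the most Igf1. At 3 µg/kg, for example, replicate 1 had the lowest Car3 (1.22 CPM) and the highest Igf1 (385 CPM) of its group. Without the 2 libraries farthest from the median of Car3 (replicate 1 of vehicle and of 0.03 µg/kg), r was -0.570. This r kept the group means of all 24 libraries, whereas the omissions of 1 library below took new group means. The adjusted permutation p passed the threshold without vehicle replicate 1 (r = -0.635, adjusted p = 0.0099), without vehicle replicate 3 (r = -0.636, adjusted p = 0.00561) and without replicate 2 of 1 µg/kg (r = -0.552, adjusted p = 0.047). Over all omissions of 1 library the adjusted p ran from 0.00561 to 0.247. The adjusted permutation p was 0.288 with the replicate number as a block (r = -0.432). Without the 2 highest dose groups it was 0.315 (r = -0.434). Among the other genes tested, 2.14% had a lower within-dose r with Car3 than Igf1 had, and 5.27% a lower one with Igf1 than Car3 had.

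Both pairs with Ghr had coefficients near 0. For Car3 and Ghr r was 0.0434 (permutation p = 0.865, adjusted p = 0.955) and rho -0.0087 (permutation p = 0.975, adjusted p = 0.975). For Igf1 and Ghr r was 0.0139 (permutation p = 0.955, adjusted p = 0.955) and rho 0.0122 (permutation p = 0.964, adjusted p = 0.975). Without the 2 farthest libraries, and with the group means of all libraries kept, these r were -0.0623 and -0.113. Single libraries turned the sign of both, which ran from -0.129 to 0.147 and from -0.119 to 0.219 over the omissions of 1 library.

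**Figure D4:**
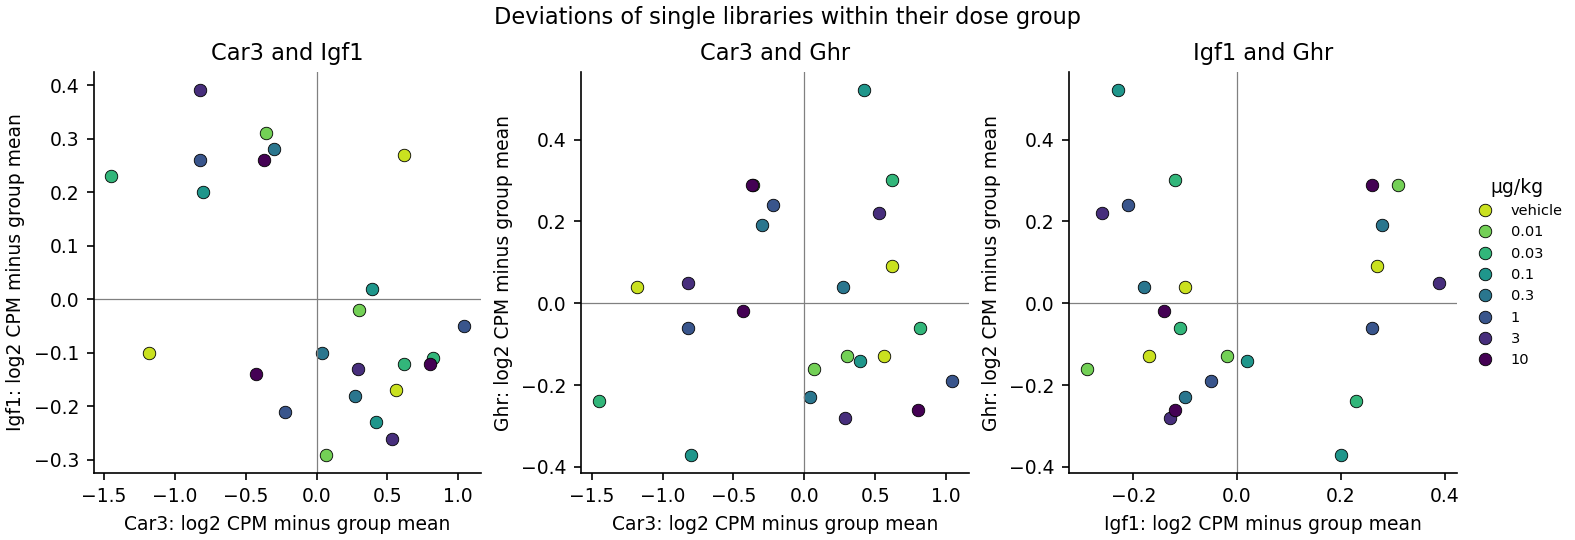
Deviation of each library from the mean of its dose group in log2 CPM for the 3 pairs of genes (both axes), with 1 point per library coloured by dose. Car3 and Igf1 tend to opposite signs (r = -0.511, adjusted permutation p = 0.0745), while Car3 with Ghr and Igf1 with Ghr form no line (r = 0.0434 and 0.0139).

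The spread within doses differed between the genes. The pooled within-group SD of log2 CPM, on 16 residual degrees of freedom, was 0.81 for Car3, 0.26 for Igf1 and 0.27 for Ghr, with a median of 0.29 over all genes tested. Of those genes, 96.6% varied less than Car3, 41.1% less than Igf1 and 45.8% less than Ghr. The within-dose deviations of the 3 genes were also compared with gene counts and with the share of not-unique alignments, a family of 6 relations chosen after the data were seen. Igf1 with the not-unique share had r = 0.347 and rho = 0.117 (permutation p = 0.162 and 0.647), and r = 0.216 without the 2 farthest libraries. Car3 with that share had r = -0.274 and rho = -0.313 (permutation p = 0.273 and 0.244), and r = -0.398 without the 2 farthest libraries. Both r without 2 libraries kept the group means of all libraries. The adjusted permutation p of r was at least 0.81 for all 6.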

How the data were processed

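The deposited files held raw counts per Ensembl gene ID, 1 table per library. Per the submitters' processing notes, HTSeq (version 0.6.1) and TopHat (1.4.1) were used, beside cutadapt (1.4.1), FastQC (0.11.2), SAMtools (0.1.2) and DESeq. The sources used here do not give their order and settings or the build, annotation and strand setting, so reads of overlapping or antisense genes cannot be told apart. The 5 HTSeq rows that name no gene (35.8% to 47.5% of a table) were left out.

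Counts were fitted in R 4.3.3 with edgeR 4.0.16 (filterByExpr, TMM, glmQLFit with a mean per group over 24 libraries, glmQLFTest), with Benjamini-Hochberg adjustment over 12496 genes. SE is the log2 fold change divided by the square root of F. Log2 CPM used a prior count of 2. Relations within groups used 100000 permutations within dose groups. Replicate libraries differed by 13.0 to 54.3 chi-square units per degree of freedom, so each counted once. Scripts were tested on simulated data.

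The genes, lists and tests were chosen with earlier results of these data known. The 15 gene lists could not be applied, since 0 IDs had a symbol. The rule for other named genes took those most like a member by r, at most 2 IDs in all. The labels do not say what a replicate number shares. Same-numbered deviations did not all correlate above 0.1 in any comparison with vehicle, so no pairing was used. Of the 3 same-numbered pairs, 2 correlated above 0.1 at each of 0.01, 0.03, 0.3, 1 and 10 µg/kg. Alternatives were RLE, DESeq2 1.42.0, other filters, a replicate block, fits of 2 groups and omission of single libraries. Protein sequences were not used here.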

Additional observations from a re-analysis of the deposited data

Results flagged for a closer look

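Not-unique alignments, which enter no comparison between dose groups of the 3 genes, made up 32.0% ± 2.85 of the table totals with 10 µg/kg, against 24.1% ± 0.797 with vehicle (SD, n = 3 each). Every library of that dose was above every vehicle library. The part of this share in the levels of Car3, Igf1 and Ghr was not tested.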

How the results depend on the processing

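Over 252 refits of the 21 log2 fold changes against vehicle, 0 called values changed sign. Of these refits 0 moved by as much as the SD of log2 CPM pooled over the 2 groups compared. With 3 libraries per group, omission of 1 can hardly shift a mean that far, and the other refits reused the same counts. That 0 is therefore no measure of stability. Car3 at 10 µg/kg, -8.32 without replicate 2, moved by more than the SD among that dose's own libraries (0.692). At 10 µg/kg the refitted values ran from -8.32 to -7.33 for Car3, from -1.31 to -1.02 for Igf1 and from -1.60 to -1.32 for Ghr. DESeq2 called 1 of the 3 genes at 0.3 µg/kg, and fits of 2 groups called 0 with 1 µg/kg, then 1 with 3 µg/kg. Omission of 1 library gave 0 to 1 of them at 1 µg/kg.

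Counts of all genes called lower changed by over 1.5 times below 10 µg/kg. From 0.01 up to 1 µg/kg DESeq2 called 3, 13, 37, 80 and 189, where edgeR called 0, 0, 6, 18 and 52. No filter gave 9 and 34 at 0.3 and 1 µg/kg. Fits of 2 groups gave 1, 0, 0, 9 and 280 from 0.03 to 3 µg/kg, against 665 at 3 µg/kg. Omission of 1 library gave 0 to 1 at 0.01 and 0.03, 0 to 9 at 0.1, 1 to 73 at 0.3, 4 to 138 at 1 and 295 to 625 at 3 µg/kg. From 1 to 3 µg/kg DESeq2 called 50 and fits of 2 groups 6, against 21. From 3 to 10 µg/kg fits of 2 groups called 129 and the block 540, against 354. The cause was not tested.

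With the replicate number as a block, counts were 18, 30 and 84 at 0.1, 0.3 and 1 µg/kg, and no call of Car3, Igf1 or Ghr changed against vehicle. The block turned r of Igf1 and Ghr to -0.0217, and r of Car3 and Igf1 was -0.432 with it. Without the 2 highest dose groups these r were -0.115 and -0.434. Omission of 1 library gave r from -0.636 to -0.435 for Car3 and Igf1, from -0.129 to 0.147 for Car3 and Ghr and from -0.119 to 0.219 for Igf1 and Ghr. Same-numbered libraries of vehicle and 10 µg/kg had deviations correlated at 0.36, 0.17 and 0.091, and 4 of these 6 libraries correlated best with their own number. Depth limits Car3 at 10 µg/kg, which rests on 5 to 16 counts. The starts of the falls without single libraries were added after the data were seen. The gene lists were not run under any alternative, since they could not be applied.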
